A study of Mus musculus with 6 samples.

Results

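The kinetochore, centromere and spindle checkpoint genes were followed in mouse embryonic fibroblasts given erastin. The set holds 37 genes, listed by name and matched through the GENCODE M21 symbols of the Ensembl identifiers, and all 37 were found among the 43346 genes of the count table. Erastin blocks the cystine/glutamate antiporter and thereby starves cells of cystine, which can lead to ferroptosis, the iron-dependent death of cells by lipid peroxidation. Both groups were primary fibroblasts of the C57BL/6 strain at passage 9 and were harvested at 24 h, 3 libraries after 3 µM erastin and 3 after the solvent DMSO. Primary fibroblasts have a limited life span in culture, and the growth medium held 2-mercaptoethanol in both groups. The labels do not say whether the 3 libraries of a group came from separate embryos or cultures, so p-values measure the spread between these libraries, which may be technical.

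The kinetochore is the protein structure that joins each chromosome to the microtubules of the mitotic spindle. An inner layer, the constitutive centromere-associated network (CCAN), sits on centromeric chromatin marked by the histone variant CENP-A, and an outer layer built on the NDC80 complex and KNL1 holds the microtubule. Kinetochores without a microtubule activate the spindle checkpoint, which keeps the anaphase-promoting complex (APC/C) inactive by sequestering its activator CDC20, while the chromosomal passenger complex with Aurora B corrects faulty attachments. Many of these genes are transcribed mainly in the G2 and M phases of the cell cycle, through CCAAT boxes bound by NF-Y and through the cell cycle genes homology region (CHR), an element bound by complexes built on the MuvB core.

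Library totals ran from 13333911 to 20509970 reads, and the 37 genes took 6382 to 10013 of these reads in a library. Levels are given as CPM, read counts scaled to a common library size with TMM factors, and 3 reads were worth 0.139 to 0.233 CPM. Slc7a11, which encodes the light chain of the blocked antiporter, and Hmox1, the heme oxygenase gene, rose, with log2 fold changes of 3.75 and 3.86 (adjusted p = 1.01e-09 and 8.29e-11 in edgeR). All 10 fibroblast markers on a list of cell type markers were counted in both groups, with summed levels of 28900 to 30000 CPM in DMSO and 17000 to 18900 CPM in erastin libraries, and 9 of the 10 fell. Of 23 markers of epithelial, endothelial, blood, muscle and neural cells 9 were abundant enough to test, of which Kdr, Tek and Des were higher and Tubb3 lower with erastin. Summed endothelial markers ran from 5.09 to 7.7 CPM in DMSO and from 14 to 17.4 CPM in erastin libraries, those of muscle from 35.7 to 45.3 and from 65 to 68.3 CPM. The blood markers summed to at most 9.45 CPM and the epithelial ones to at most 3.65 CPM in a library, and Hbb-bt had no read. The part of these shifts in the results below was not tested.

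Transcripts of most kinetochore and checkpoint genes were much scarcer after erastin. Of the 37 genes, 28 (75.7%) fell at an adjusted p-value under 0.05 in edgeR's quasi-likelihood test, while 21.5% of the 14000 genes tested were called lower and 43.1% were called in either direction. A fall of at least 1 on the log2 scale was called for 26 of the 37, against 7.16% of all genes, and one of at least 2 for 15, against 2.08%. Zwint and Bub3 were the 2 genes that rose, where 21.6% of all genes were called higher. The remaining 7, Tpx2, Mad1l1, Cenpt, Cenpl, Cenpc1, Cenpq and Cenpo, did not pass. The median log2 fold change of the 37 was -1.78, and that of all genes tested was -0.0014. In 29 of the 37 all erastin libraries lay under all DMSO libraries, which was so for 25.8% of all genes, and in 3 they lay above, as for 26.7% of all genes. In these bulk libraries, fewer cells in mitosis and less of each RNA per cell cannot be told apart.

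The 3 most abundant genes of the set, Zwint, Bub3 and Tpx2, were not among those that fell. The median level of the 37 genes was 10.7, 10.3 and 10.4 CPM in DMSO replicates 1, 2 and 3, and 2.65, 2.34 and 2.65 CPM in erastin replicates 1, 2 and 3. Their summed level moved less, from 534 to 555 CPM in DMSO and from 366 to 382 CPM in erastin libraries. Zwint, Bub3 and Tpx2 made up 35.7% to 36.7% of that sum in DMSO and 63.8% to 67.4% in erastin libraries, and the other 34 genes together went from 338 to 357 CPM in DMSO to 125 to 132 CPM. Counted per kilobase of the longest annotated transcript, the highest levels in DMSO were those of Zwint, Bub3, Tpx2 and Cdc20, at 31.0, 16.1, 11.5 and 11.0 CPM per kilobase. In erastin libraries the order began with Zwint at 44.3, Bub3 at 21.6, Tpx2 at 9.74 and Mad1l1 at 8.03 CPM per kilobase. The lowest were Cenpw in DMSO at 0.686 and Cenpw and Sgo1 in erastin libraries at 0.141 and 0.188 CPM per kilobase.

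**Figure D1:**
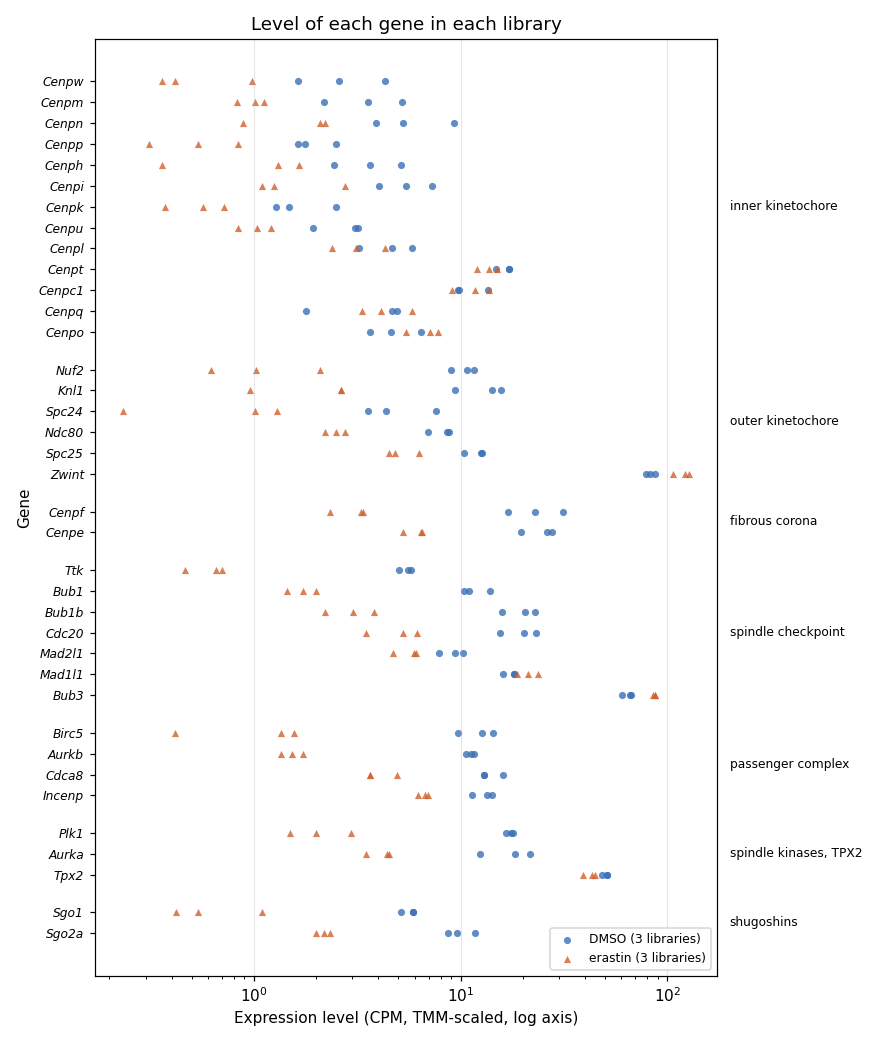
Level of each of the 37 genes (rows, grouped by role) in CPM on a log axis, with 1 point per library, circles for the 3 DMSO and triangles for the 3 erastin libraries. Circles and triangles are apart for 32 of the 37 genes, with the erastin libraries above for Zwint, Bub3 and Mad1l1.

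The promoters of these genes were read for 3 motifs, as a description without a test. RefSeq promoter windows on GRCm38.p6, from 250 bases before to 50 bases after the annotated start, were held for 33 of the 37 genes and were missing for Aurkb, Incenp, Spc24 and Tpx2. The starts are those of RefSeq. In 31 of the 38 windows the first 30 transcribed bases were found near the start of a GENCODE M21 transcript of the gene. Motifs were searched as letters on both strands, the CHR as TTTGAA or TTCGAA, the NF-Y box as CCAAT, and E2F sites as TTTGGCGC, TTTCGCGC, TTTCCCGC or TTTGCCGC. CHR letters stood in the windows of 17 of the 33 genes (51.5%), against 19.2% of all 32851 windows and 16.2% of the tested genes that had one. CCAAT stood in 24 of 33 (72.7%), against 37.4% of all windows and 42.9% of tested genes. Both were found for 15 of 33 (45.5%), against 7.52% of all windows and 8.02% of tested genes, and in 2 places the letters of a CHR and a CCAAT overlapped. E2F letters were found for 2 genes (6.1%), Cenpl and Cenpm, near the 4.74% of tested genes, and in 2.26% of all windows. Among the 25 genes with a window that fell, 15 had CHR letters, as did 2 of the 8 that did not fall. Such matches describe the letters of these windows and are not evidence of binding.

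Windows of 120 bases, from 90 before to 30 after the start, are printed for 5 genes that fell and hold both kinds of letters. Capitals mark CHR and CCAAT letters on either strand. Bases are numbered from 1 at the annotated start and upwards from -1 before it. The windows lie on GRCm38.p6 at chr9:83834599-83834718 on the plus strand (Ttk), chr1:189688057-189688176 on the minus strand (Cenpf), chr2:127831830-127831949 on the minus strand (Bub1), chr4:124936888-124937007 on the minus strand (Cdca8) and chr4:118437314-118437433 on the minus strand (Cdc20).
Ttk: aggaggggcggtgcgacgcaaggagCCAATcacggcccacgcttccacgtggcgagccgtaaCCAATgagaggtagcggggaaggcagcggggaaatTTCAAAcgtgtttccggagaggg
Cenpf: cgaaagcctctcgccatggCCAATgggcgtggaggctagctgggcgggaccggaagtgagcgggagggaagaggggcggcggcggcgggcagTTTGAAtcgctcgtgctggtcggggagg
Bub1: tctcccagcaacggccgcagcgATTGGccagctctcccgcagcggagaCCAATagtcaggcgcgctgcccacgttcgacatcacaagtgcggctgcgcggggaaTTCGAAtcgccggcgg
Cdca8: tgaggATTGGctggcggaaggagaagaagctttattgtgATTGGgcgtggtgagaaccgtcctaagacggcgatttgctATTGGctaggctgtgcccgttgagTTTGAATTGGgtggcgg
Cdc20: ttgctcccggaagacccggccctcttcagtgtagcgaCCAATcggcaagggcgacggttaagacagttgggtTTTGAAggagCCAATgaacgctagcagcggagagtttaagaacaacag
In Ttk, Cenpf, Bub1 and Cdca8 the CHR letters began at bases 8, 3, 15 and 14 after the start, with CCAAT letters upstream of them. Cdca8 also had CCAAT letters at bases 19 to 23, which overlapped the last of its CHR letters. In Cdc20 the CHR letters began at base -18, between CCAAT letters on either side. Over all members, 15 genes had CHR letters at or after base -50.

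Shown next are 2 genes that fell and lack these letters, Nuf2 and Birc5, and the 2 that rose, Bub3 and Zwint. Their windows lie at chr1:169531435-169531554 on the minus strand (Nuf2), chr11:117849147-117849266 on the plus strand (Birc5), chr7:131560280-131560399 on the plus strand (Bub3, the upstream one of its 2 annotated starts) and chr10:72654756-72654875 on the plus strand (Zwint).
Nuf2: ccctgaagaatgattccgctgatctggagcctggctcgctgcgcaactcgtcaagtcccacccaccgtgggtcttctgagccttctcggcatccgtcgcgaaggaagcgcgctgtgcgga
Birc5: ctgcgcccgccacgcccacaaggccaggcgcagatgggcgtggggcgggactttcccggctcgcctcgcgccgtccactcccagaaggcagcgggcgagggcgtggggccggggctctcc
Bub3: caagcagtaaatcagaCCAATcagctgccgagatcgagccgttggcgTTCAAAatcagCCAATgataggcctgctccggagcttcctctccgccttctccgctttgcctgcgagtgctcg
Zwint: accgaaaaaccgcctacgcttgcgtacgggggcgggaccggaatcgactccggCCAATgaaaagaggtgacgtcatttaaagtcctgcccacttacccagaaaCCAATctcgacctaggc
Bub3 holds CHR letters at base -43 with CCAAT letters on either side, much as Cdc20 does, and Zwint holds CCAAT letters without CHR letters. The Nuf2 and Birc5 windows hold none of the letters searched, which says nothing of other forms of these elements.

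**Figure D2:**
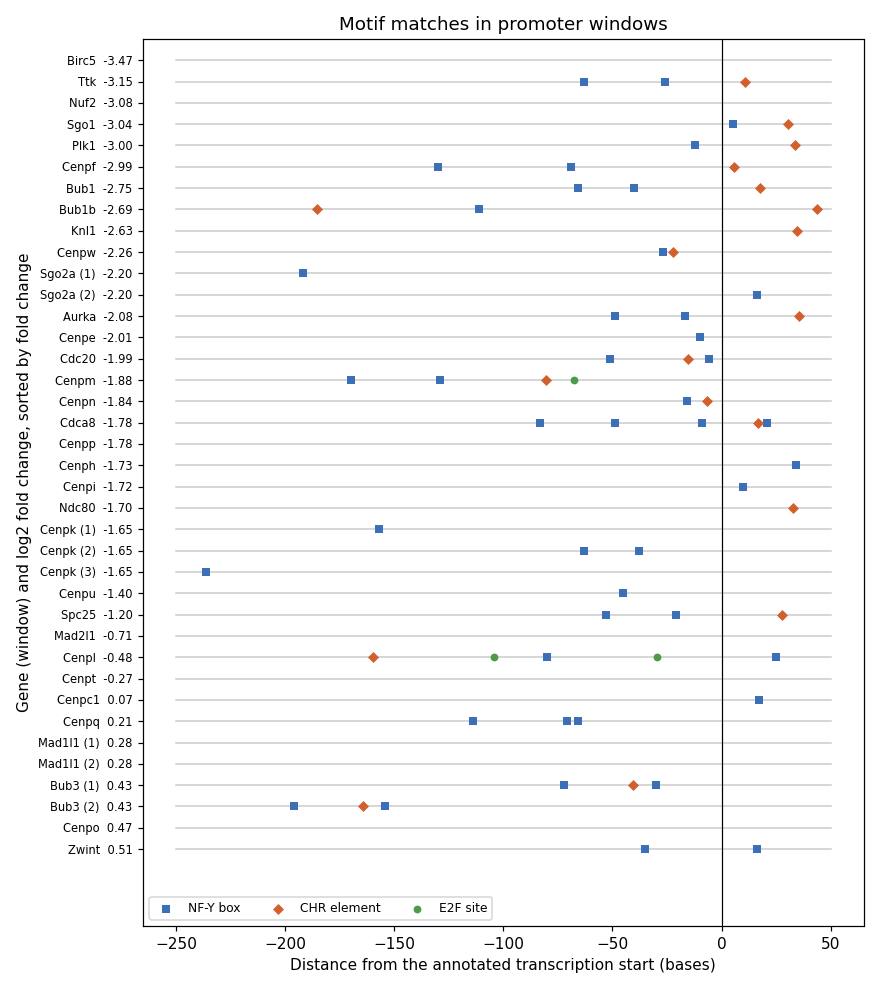
Positions of motif matches (squares, NF-Y box; diamonds, CHR element; circles, E2F site) in 38 promoter windows of 33 genes, as distance from the annotated start in bases. Rows are sorted by log2 fold change, from Birc5 at -3.47 to Zwint at 0.51, and most diamonds lie from 50 bases before the start onwards in rows of genes that fell.

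The inner kinetochore split into genes that fell and genes that did not pass. Of its 13 genes in the set 8 (61.5%) fell, none rose, and 5 did not pass, with a median log2 fold change of -1.65. Of all genes tested 21.5% were called lower and 21.6% higher. The 8 that fell were Cenpw, Cenpm, Cenpn, Cenpp, Cenph, Cenpi, Cenpk and Cenpu, with log2 fold changes of -2.26 (Cenpw) to -1.40 (Cenpu). CENP-N, a subunit that binds the CENP-A nucleosome, had the highest of these levels in DMSO when counted in CPM. Per kilobase of transcript Cenpm (3.03) and Cenph (2.99) stood above Cenpn (2.47 CPM per kilobase). Cenpn stood at 5.29, 9.31 and 3.89 CPM in DMSO replicates 1, 2 and 3 and at 2.10, 2.22 and 0.882 CPM in erastin replicates 1, 2 and 3. DMSO replicate 2 was the highest, and the groups did not overlap (log2 fold change -1.84, SE 0.42, adjusted p = 0.00268 in edgeR). Cenpi, for a subunit of the CENP-H/I/K/M complex, went from 5.44, 4.05 and 7.24 CPM to 1.26, 2.75 and 1.09 CPM, again without overlap (log2 fold change -1.72, SE 0.41, adjusted p = 0.00388 in edgeR).

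Other CCAN genes that fell were thinly covered, and several calls rested on all 6 libraries. Cenpw, whose product pairs with CENP-T through histone folds, went from 2.57, 4.32 and 1.64 CPM to 0.978, 0.359 and 0.415 CPM, all 3 lower. Without DMSO replicate 2, its log2 fold change was -1.82 (edgeR adjusted p = 0.0594) and that of Cenpm -1.53 (0.0512), and without DMSO replicate 3 that of Cenph was -1.43 (0.0669). Cenpk and Cenpu, at 1.75 and 2.74 CPM in DMSO and 0.554 and 1.03 CPM in erastin libraries on average, each passed in 1 of the 6 fits that left out a library, and Cenpp, at 1.97 and 0.563 CPM, in 2 of them. In these fits edgeR adjusted p-values reached 0.171 for Cenpk, 0.0915 for Cenpu and 0.0929 for Cenpp. Their log2 fold changes stayed within -1.87 and -1.31, -1.60 and -1.27, and -2.20 and -1.49. Exons of Cenpu overlap those of Primpol on the opposite strand over 26.7% of their length, and those of Cenpp overlap Ippk over 12.3%, and whether the counting used the strand is not given in the sources used here.

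The 5 inner kinetochore genes that did not pass included both proteins that carry the outer kinetochore. CENP-C and CENP-T each link centromeric chromatin to the outer layer. Cenpc1 (CENP-C) stood at 9.67, 9.87 and 13.6 CPM in DMSO and at 13.7, 11.7 and 9.13 CPM in erastin libraries. The libraries of both groups interleaved, and the log2 fold change was 0.065 with a 95% interval of -0.39 to 0.52 (edgeR adjusted p = 0.832). Cenpt stood at 17.1, 14.9 and 17.1 CPM in DMSO and 12.0, 15.0 and 13.7 CPM in erastin libraries. The interval of its log2 fold change ran from -0.62 to 0.077 around -0.27 (edgeR adjusted p = 0.199). Cenpl, Cenpq and Cenpo had log2 fold changes of -0.48 (interval -1.24 to 0.27), 0.21 (-0.62 to 1.04) and 0.47 (-0.13 to 1.08), at mean levels of 4.58, 3.80 and 4.90 CPM in DMSO. These intervals leave room for changes in either direction but do not reach the -1.40 of Cenpu, the smallest fall called among the CCAN genes. The interval of Cenpu itself ran from -2.41 to -0.38. It overlapped those of Cenpl, Cenpt, Cenpc1 and Cenpq, so called and uncalled genes were not set apart there. Cenpo exons overlap Adcy3 on the opposite strand over 19% of their length.

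All 4 subunits of the NDC80 complex, the rod that grips the microtubule, fell, where 21.5% of all genes were called lower. Nuf2 stood at 10.7, 11.6 and 8.95 CPM in DMSO replicates 1, 2 and 3 and at 1.02, 2.10 and 0.622 CPM in erastin replicates 1, 2 and 3. The highest erastin library was far under the lowest DMSO library (log2 fold change -3.08, SE 0.36, adjusted p = 9.5e-06 in edgeR). Its dimer partner Ndc80 went from 8.84, 6.98 and 8.56 CPM to 2.75, 2.22 and 2.49 CPM (log2 fold change -1.70, SE 0.27, adjusted p = 0.000158 in edgeR). The other dimer of the complex anchors it to the kinetochore. Spc24 went from 3.55, 4.38 and 7.63 CPM to 0.233, 1.02 and 1.30 CPM, the first of these from 5 reads (log2 fold change -2.62, SE 0.53, adjusted p = 0.00117 in edgeR). Spc25 went from 12.5, 12.8 and 10.4 CPM to 4.80, 4.49 and 6.27 CPM (log2 fold change -1.20, SE 0.22, adjusted p = 0.000498 in edgeR). Within each dimer the point estimates differed, and the intervals of Nuf2 (-3.86 to -2.30) and Ndc80 (-2.29 to -1.12) just missed each other, while those of Spc24 (-3.75 to -1.48) and Spc25 (-1.67 to -0.72) overlapped.

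KNL1 and its partner ZWINT moved in opposite directions. KNL1 is the scaffold on which the checkpoint proteins BUB1 and BUB3 assemble. Knl1 stood at 9.45, 14.2 and 15.7 CPM in DMSO and 2.65, 0.958 and 2.65 CPM in erastin libraries, with no overlap (log2 fold change -2.63, SE 0.33, adjusted p = 1.76e-05 in edgeR). Zwint (ENSMUSG00000019923.9, chr10:72654845-72674964 in GENCODE M21), which binds KNL1 and helps recruit the RZZ complex, stood at 79.0, 82.7 and 87.2 CPM in DMSO and at 122, 127 and 107 CPM in erastin libraries. All 3 erastin libraries were higher (log2 fold change 0.51, SE 0.09, adjusted p = 0.000286 in edgeR), and Zwint passed as higher in all 17 alternative settings, with log2 fold changes of 0.41 to 0.59. In DMSO libraries there were 8.37, 5.83 and 5.54 reads of Zwint for each read of Knl1, and in erastin libraries 45.8, 133 and 40.3.

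The fibrous corona is the outermost, expandable layer of the kinetochore, and both of its genes in the set fell. Among all genes tested 21.5% were called lower. Cenpf, whose large coiled-coil product appears in G2, stood at 17.0, 23.0 and 31.5 CPM in DMSO and 2.33, 3.29 and 3.37 CPM in erastin libraries. The DMSO libraries spread widely, but all lay far above the erastin libraries (log2 fold change -2.99, SE 0.24, adjusted p = 2.41e-07 in edgeR). Cenpe, for a kinesin motor that carries chromosomes to the spindle equator, went from 19.7, 26.1 and 27.7 CPM to 6.47, 5.27 and 6.48 CPM (log2 fold change -2.01, SE 0.18, adjusted p = 6.21e-07 in edgeR).

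**Figure D3:**
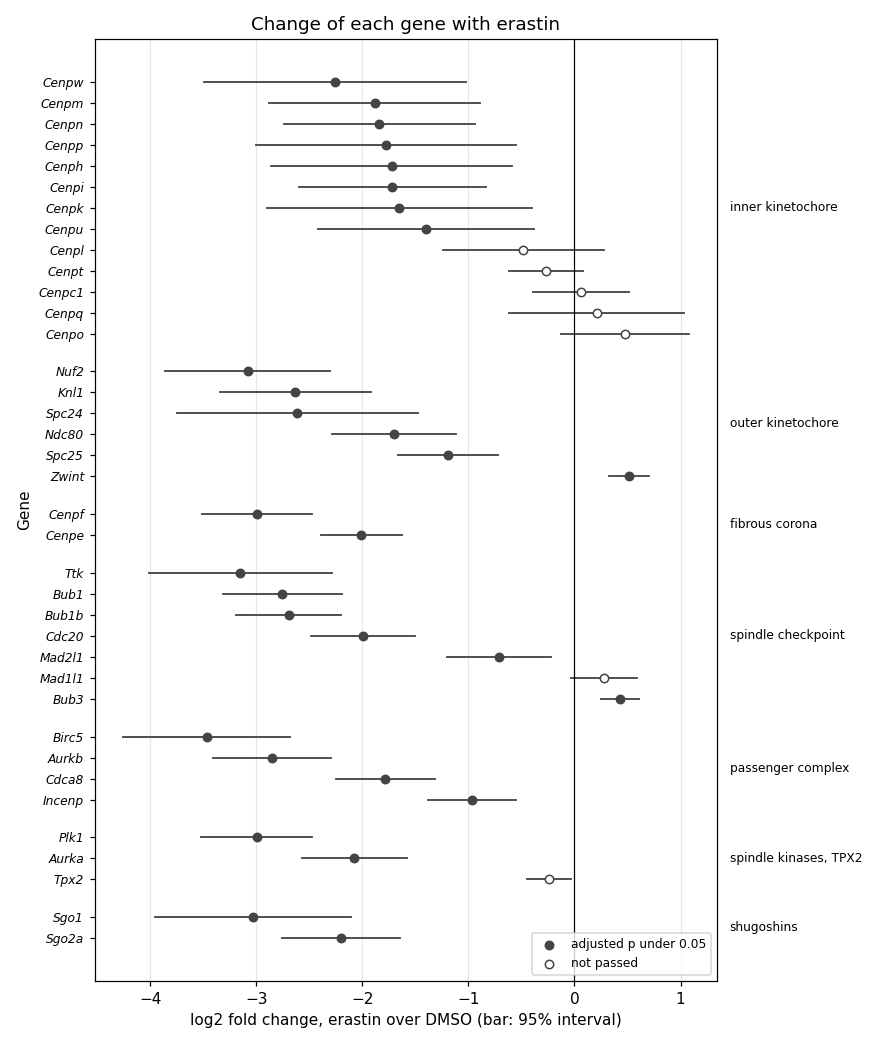
Log2 fold change of each of the 37 genes with erastin (points, rows grouped by role) and its 95% interval (bars), filled where the edgeR adjusted p-value is under 0.05. Filled points left of 0 number 28 and those right of 0 number 2, Zwint and Bub3, and the 7 open points lie between -0.48 (Cenpl) and 0.47 (Cenpo).

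Of 7 checkpoint genes 5 (71.4%) fell, 1 rose and 1 did not pass, where 21.5% of all genes were called lower and 21.6% higher. By point estimate the largest fall was that of Ttk (ENSMUSG00000038379.11), the gene of the MPS1 kinase that starts checkpoint signalling. Ttk went from 5.59, 5.04 and 5.76 CPM in DMSO replicates 1, 2 and 3 to 0.698, 0.659 and 0.467 CPM in erastin replicates 1, 2 and 3. These erastin values came from 15, 11 and 9 reads and left 11.3% of the DMSO level (log2 fold change -3.15, SE 0.40, adjusted p = 1.96e-05 in edgeR). The kinase gene Bub1 went from 13.9, 11.0 and 10.4 CPM to 2.00, 1.74 and 1.45 CPM, and the gene of the related pseudokinase BUBR1, Bub1b, from 15.8, 20.4 and 22.9 CPM to 3.82, 2.22 and 3.01 CPM. Their log2 fold changes were -2.75 (SE 0.26) and -2.69 (SE 0.23), with edgeR adjusted p-values of 1.15e-06 and 3.99e-07. The interval of Ttk (-4.015 to -2.287) overlapped those of Bub1, Bub1b and Cdc20.

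BUB3, the propeller protein that brings both BUB1 and BUBR1 to the kinetochore, showed the reverse. Bub3 (ENSMUSG00000066979.5, chr7:131560222-131571895 in GENCODE M21) stood at 65.9, 67.1 and 60.3 CPM in DMSO and at 86.8, 85.4 and 87.6 CPM in erastin libraries. The erastin libraries were close together and all higher (log2 fold change 0.43, SE 0.08, adjusted p = 0.00085 in edgeR). Reads of Bub3 per read of Bub1 numbered 4.74, 6.11 and 5.83 in DMSO and 43.4, 49.2 and 60.3 in erastin libraries.

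Of the MAD genes Mad2l1 fell and Mad1l1 did not pass. MAD1 and MAD2 form the template on which further MAD2 is converted to its inhibitory form. Mad2l1 went from 9.37, 10.3 and 7.86 CPM to 5.96, 4.73 and 6.12 CPM (log2 fold change -0.71, SE 0.23, adjusted p = 0.0213 in edgeR). That call was lost without DMSO replicate 1, without DMSO replicate 2 and without erastin replicate 2 (edgeR adjusted p = 0.0529, 0.0898 and 0.0753), with log2 fold changes of -0.70, -0.62 and -0.61. Mad1l1 stood at 16.0, 18.1 and 18.2 CPM in DMSO and at 21.2, 18.7 and 23.6 CPM in erastin libraries. All 3 erastin libraries were higher, yet the difference did not pass (log2 fold change 0.28, interval -0.030 to 0.59, edgeR adjusted p = 0.136); after an offset for GC content and transcript length it passed (log2 fold change 0.40, edgeR adjusted p = 0.0404), and with the replicate block added it did not (0.0508). Cdc20, the APC/C activator that the checkpoint holds back, fell from 20.3, 23.3 and 15.6 CPM to 3.49, 6.17 and 5.29 CPM (log2 fold change -1.99, SE 0.23, adjusted p = 6.86e-06 in edgeR).

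All 4 genes of the chromosomal passenger complex fell, by unequal amounts, where 21.5% of all genes were called lower. Birc5 (ENSMUSG00000017716.11, chr11:117849251-117855743 in GENCODE M21) encodes survivin, the subunit that reads a histone mark at centromeres. It stood at 14.4, 9.76 and 12.8 CPM in DMSO replicates 1, 2 and 3 and at 1.35, 1.56 and 0.415 CPM in erastin replicates 1, 2 and 3. By point estimate this was the largest fall of the 37 genes, to 9.03% of the DMSO level (log2 fold change -3.47, SE 0.37, adjusted p = 2.99e-06 in edgeR). Its interval (-4.26 to -2.68) overlapped those of many other genes that fell, among them Ttk, Nuf2, Sgo1, Plk1, Cenpf and Aurkb. The data thus do not set Birc5 apart from these genes. Without erastin replicate 3, where Birc5 had 8 reads, its log2 fold change was -3.07. Aurkb, the kinase of the complex, went from 11.6, 11.2 and 10.7 CPM to 1.54, 1.74 and 1.35 CPM, tight in both groups (log2 fold change -2.85, SE 0.26, adjusted p = 6.85e-07 in edgeR). Cdca8 (borealin) went from 12.9, 16.1 and 13.0 CPM to 3.63, 3.65 and 4.93 CPM (log2 fold change -1.78, SE 0.22, adjusted p = 1.34e-05 in edgeR). Incenp, the scaffold that activates Aurora B, kept 51.1% of its DMSO level, going from 11.3, 14.3 and 13.4 CPM to 6.94, 6.77 and 6.22 CPM (log2 fold change -0.97, SE 0.19, adjusted p = 0.000958 in edgeR). The intervals of Incenp (-1.38 to -0.55) and of Aurkb (-3.41 to -2.30) were far apart.

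Of the spindle kinases and their activator, Plk1 and Aurka fell and Tpx2 did not pass. Plk1, for the kinase that acts from mitotic entry to cytokinesis, went from 17.5, 16.6 and 17.9 CPM to 2.00, 1.50 and 2.96 CPM (log2 fold change -3.00, SE 0.24, adjusted p = 2.45e-07 in edgeR). Aurka, for the centrosomal Aurora kinase, went from 21.7, 18.4 and 12.5 CPM to 4.42, 3.47 and 4.51 CPM (log2 fold change -2.08, SE 0.23, adjusted p = 5.13e-06 in edgeR). TPX2 activates Aurora A on the spindle. Tpx2 (ENSMUSG00000027469.12, chr2:152847964-152895321 in GENCODE M21) stood at 51.2, 48.6 and 51.0 CPM in DMSO and at 43.3, 44.8 and 39.3 CPM in erastin libraries. The erastin libraries all lay slightly lower (log2 fold change -0.24, interval -0.45 to -0.035, edgeR adjusted p = 0.057). It passed as lower with upper-quartile factors (log2 fold change -0.30, edgeR adjusted p = 0.0231) and after the GC and length offset (-0.32, 0.0151). Under every setting run its log2 fold change stayed between -0.32 and -0.18, where that of Aurka lay between -2.27 and -1.90.

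The shugoshins protect the cohesion of sister centromeres, and both fell, where 21.5% of all genes were called lower. Sgo1 went from 5.89, 5.88 and 5.14 CPM to 0.419, 0.539 and 1.09 CPM (log2 fold change -3.04, SE 0.43, adjusted p = 5.43e-05 in edgeR). Sgo2a went from 11.7, 9.59 and 8.72 CPM to 2.00, 2.34 and 2.18 CPM (log2 fold change -2.20, SE 0.26, adjusted p = 9.6e-06 in edgeR). Neither gene had an erastin library near its DMSO libraries. Sgo2a exons overlap Kctd18 on the opposite strand over 35% of their length.

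Ratios of reads between partner genes within a library need no scaling between libraries. In 8 pairs, chosen after the levels were seen, the ratio in all 3 erastin libraries lay above that in all 3 DMSO libraries. The pair of TPX2 and its kinase had 2.36, 2.64 and 4.09 reads of Tpx2 per read of Aurka in DMSO and 9.80, 12.9 and 8.71 in erastin libraries. Reads of Incenp per read of Birc5 numbered 0.789, 1.46 and 1.05 in DMSO and 5.14, 4.35 and 15.0 in erastin libraries. Mad1l1 to Mad2l1 shifted least, from 1.71, 1.75 and 2.32 to 3.55, 3.96 and 3.86. Each pair joined genes whose levels were known to have moved unequally, so these ratios are a description and carry no test.

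**Figure D4:**
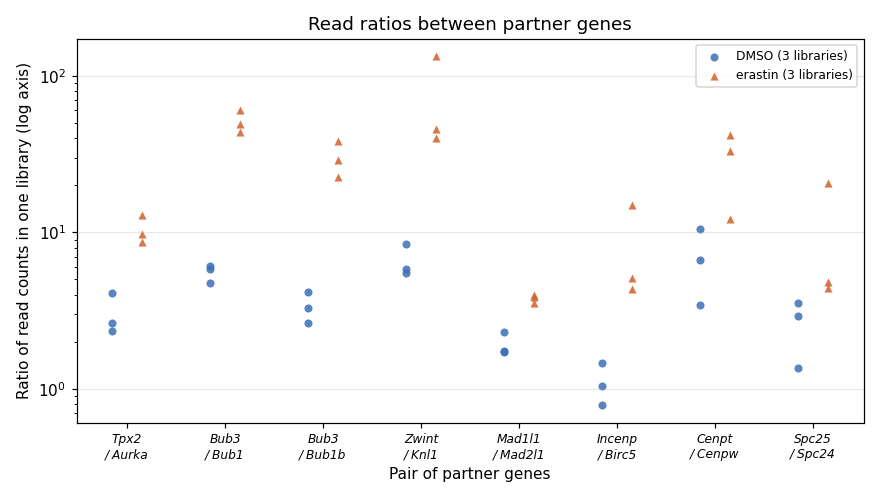
Read count of the first gene of each pair divided by that of the second, on a log axis, with 1 point per library (circles, 3 DMSO; triangles, 3 erastin). Triangles lie above circles in all 8 pairs, from a log2 shift of 0.99 for Mad1l1 over Mad2l1 to 3.27 for Zwint over Knl1.

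On a list of 56 further genes of the same machinery falls were a smaller share. All 56 were tested, 22 (39.3%) fell and 8 rose, and 10 fell by at least 1 on the log2 scale, with a median log2 fold change of -0.37. Over all genes tested 21.5% were called lower, 21.6% higher and 7.16% lower by at least 1, so the 8 rises were a smaller share than among all genes. The 6 largest falls were those of Ska1, Fbxo5, Espl1, Cenpa, Nek2 and Ube2c. Ska1, for a subunit of the complex that tracks microtubule ends, went from 2.64, 2.49 and 2.02 CPM to 0.279, 0.180 and 0.156 CPM (log2 fold change -3.48, SE 0.62, adjusted p = 0.000275 in edgeR). Cenpa, the gene of the centromeric histone itself, went from 11.4, 11.8 and 11.0 CPM to 2.00, 1.92 and 0.415 CPM (log2 fold change -2.98, SE 0.39, adjusted p = 2.41e-05 in edgeR). Espl1 (separase, which cuts cohesin), Fbxo5 (the APC/C inhibitor EMI1), Nek2 (a centrosomal kinase) and Ube2c (the E2 enzyme of the APC/C) had log2 fold changes of -3.08, -3.35, -2.36 and -2.16, and their largest adjusted p in edgeR was 0.000119. In erastin replicate 3 Fbxo5 had 2 reads, under the floor of 3, and Ska1 had 3 reads in erastin replicates 2 and 3.

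The largest rises on that list were smaller. Zw10, for an RZZ subunit that also acts in vesicle transport, went from 18.6, 15.6 and 13.0 CPM to 28.7, 26.9 and 25.9 CPM (log2 fold change 0.79, SE 0.15, adjusted p = 0.000597 in edgeR). Its partner Kntc1, chosen after its values were seen, fell from a mean of 12.3 to 2.78 CPM. The dynein adaptor gene Ndel1, the microtubule factor gene Clasp1 and the phosphatase subunit gene Ppp2r5e rose by log2 fold changes of 0.62, 0.50 and 0.48 (adjusted p = 5.32e-05, 0.000133 and 0.00254 in edgeR). Among the 14 core subunits of the APC/C 6 fell and 3 rose, all within -0.75 and 0.44 on the log2 scale, and 5 did not pass. The share that rose was close to the 21.6% of all genes, and the share that fell was 42.9%, against 21.5% of all genes. Outside the kinetochore and the APC/C, Mki67, the gene of the proliferation antigen Ki-67, fell with a log2 fold change of -3.26 (edgeR adjusted p = 1.9e-09). The replication genes Pcna and Mcm2 did not pass, at 31.0 and 26.3 CPM and at 48.8 and 48.6 CPM in DMSO and erastin libraries on average (edgeR adjusted p = 0.132 and 0.96).

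**Figure D5:**
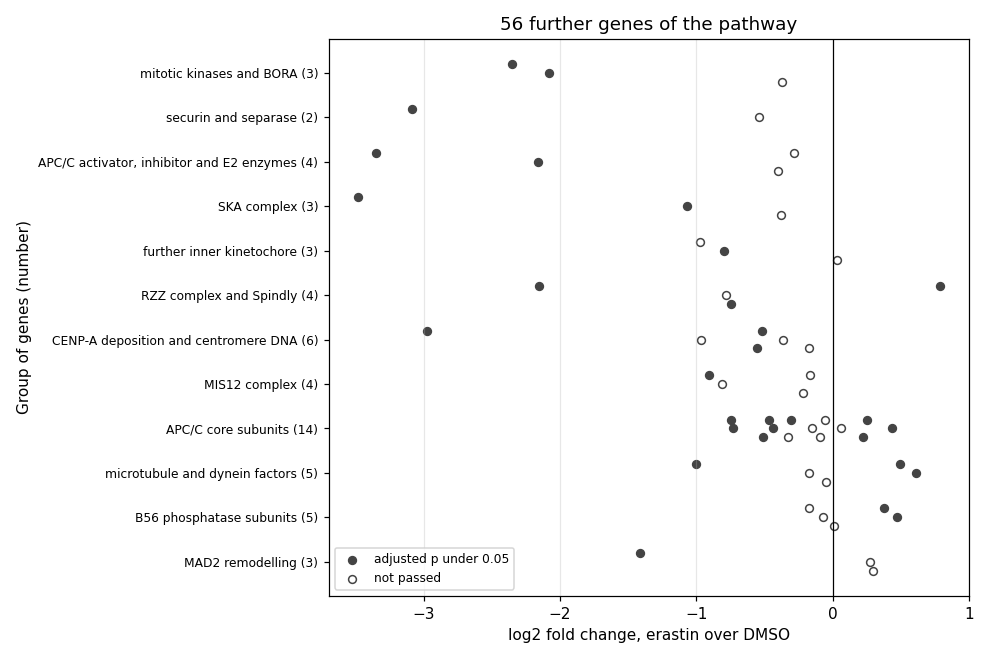
Log2 fold change with erastin of the 56 further genes, 1 point per gene in 12 groups sorted by their median, filled where the edgeR adjusted p-value is under 0.05 (points are spread vertically for visibility). The points run from Ska1 at -3.48 to Zw10 at 0.79, and no APC/C core subunit lies beyond -0.75.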

How the data were processed

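Ribosomal RNA was depleted from total RNA and barcoded Ion Total RNA-seq libraries were sequenced on an Ion Proton instrument, per the labels' protocols. The authors deposited raw read counts per gene, not normalized, for 6 libraries; HTSeq 0.9.1, SAMtools and build mm10 are named in the submitters' processing notes, while the aligner, the annotation release and the use of strand are not given in the sources used here. Each column's number was matched to the description of 1 sample, and 0 columns were left unused. Identifiers without version matched GENCODE M21 symbols for 42462 of 43346 genes (98%). No transcript of another gene shared 50% or more of any member's longest transcript at 95% identity over stretches of at least 100 bases; exons of 11 members overlapped an opposite-strand gene.

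Counts were filtered with filterByExpr (minimum count 10 in 3 libraries, total 15), which all 37 members passed, scaled with TMM factors and fitted with edgeR 4.0.16 (glmQLFit and glmQLFTest, treatment as the only term, all 6 libraries, R 4.3.3). P-values were adjusted by the Benjamini-Hochberg method over 14000 genes (threshold 0.05). Standard errors and 95% intervals were computed from the working weights of the fit and its moderated dispersion. Replicates differed by more than sampling noise, with chi-square per degree of freedom of 11 to 19.2. The floor of 3 reads covers counting error only, since no molecular identifiers are described.

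Named genes are all members, the 6 largest falls and 4 largest rises that passed among the 56 further genes, and 5 check genes. The members and all gene lists were chosen with earlier results of these data known, and the grouping of the 56 genes after their values were seen. Alternatives were RLE (median-ratio) and upper-quartile factors, total count only, no filter, a block for the replicate number, a minimum of 1 CPM in 3 libraries, each library left out in turn, DESeq2 1.42.0, an offset for GC content and length (mgcv 1.9.3), thinning to the smallest library, an adjusted p under 0.01 and glmTreat against 0.5.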

Additional observations from a re-analysis of the deposited data

How the results depend on the processing

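The 28 falling members numbered 23 to 29 over the alternatives, the rising ones 2 or 3 and the median log2 fold change of the 37 lay between -1.90 and -1.72. Under the 6 fits that left out a library 23 to 26 members fell, and 21 of the 28 passed in every one. In these fits 2400 to 2862 of all genes were called lower. With the replicate block 27 members fell, since Cenpk did not pass (log2 fold change -1.62, edgeR adjusted p = 0.0668). To look for pairing, the mean of its group was subtracted from each gene's level in each library. These deviations, not the levels themselves, had correlations of 0.0401, 0.00379 and -0.0055 between DMSO and erastin libraries of equal number. Between libraries of unequal number the correlations averaged -0.00628. That average is no separate baseline, since the deviations within a group cancel out and tie it to the correlations at equal number. The correlations at equal number were themselves small, so a shared replicate number came with no clear likeness. No filter on low counts also ended the call of Cenpk (log2 fold change -1.63, edgeR adjusted p = 0.0739), whose log2 fold change was -1.65 in the main analysis. The median of all genes moved from -0.0014 to -0.055 with upper-quartile factors and to 0.065 with total count only; genes higher made up 50.2%, 44% and 57.1% of those passing.

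Of the 56 further genes, 5 rather than 8 were higher at an adjusted p under 0.01. Fewer of all genes were called higher at that threshold too, against 21.6% at 0.05. The share of the 56 stayed under that of all genes, so this drop is not particular to the list. The median log2 fold change of the 56 was -0.3132 with total count only. It was -0.4573 after the GC and length offset without the replicate block, -0.4602 with it, and -0.42 to -0.26 when 1 library was left out. Values near 0 changed sign. Cenpc1 was -0.12 (-0.122 and -0.12) after the offset without and with the block and ran from -0.084 to 0.24 with 1 library left out, and Cenpq then ran from -0.12 to 0.45. Mcm2, at -0.0073, was 0.057 with total count only, 0.011 without a filter, 0.0034 and 0.0028 after the offset without and with the block, 0.026 and 0.025 after thinning without and with it, and -0.054 to 0.056 with 1 library left out. The cause was not tested. Cenpw, Cenpp, Cenph, Cenpk and Cenpu had 6 to 32 reads in an erastin library, and all 5 still passed after thinning to the smallest library (edgeR adjusted p = 0.00587, 0.00714, 0.0118, 0.0259 and 0.0274).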
